A study of Rattus norvegicus with 125 samples.

Results

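The collagen genes of the rat were followed in 5 organs after inhalation of phosphine (PH3), a toxic gas. All genes whose symbol on the array platform reads Col, a number, a and a number were taken, and in each organ the brightest of a gene's probe sets, by mean signal, stood for it. The rule found 37 genes with 52 probe sets, among 13439 genes that had a probe set with a single symbol. The rule used no measured response. Values came from 125 Affymetrix arrays of brain, heart, kidney, liver and lung from 48 rats, and they are log2 signals as deposited. A log2 difference of 1 is a doubling of signal.

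All rats were adult male Sprague-Dawley rats, and the labels name no genetic alteration. Rats of the PH3 groups breathed 387 ppm of phosphine in a whole-body chamber for 40 min, a product of concentration and time of 15480 ppm x min that the labels call low. Rats of the Air groups are labelled with 0 ppm for the same time. Brain, heart and kidney were taken at 1, 3, 6 and 24 h, lung at 3 and 24 h and 1 week, and liver at 6 h. Each group held 4 arrays, apart from 3 PH3 and 2 Air arrays of heart at 24 h, 2 Air arrays of lung at 3 h and 3 PH3 arrays of lung at 1 week. A further 3 liver arrays, from PH3 rats at 3 h, had no matching Air group. In the comparison of PH3 with Air they served only to estimate spread. They also counted in the choice of probe sets and in the correlations between genes. RNA was made from powdered frozen tissue and labelled by a 3' method, so values are means over all cells of a piece of organ. In such samples fewer cells of a type and less RNA per cell cannot be told apart. Arrays have no read depth, and the number of arrays limits the precision.

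Each organ label was checked against genes that define the organ. The mean of 7 brain markers was 9.47 to 9.87 on brain arrays and at most 5.35 on the others, and the mean of 8 lung markers was 12.5 to 12.8 on lung arrays and at most 6.11 elsewhere. Heart, kidney and liver markers were likewise highest on their own arrays, without overlap. Array medians ran from 5.08 to 5.52.

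Collagens are triple helices of 3 chains that carry most of the tensile load of animal tissue. Fibrillar collagens such as types I, III and V form the cross-striated fibres of stroma, type IV forms the sheet of basement membranes, and type VI forms beaded filaments around cells. The FACIT collagens sit on the surface of fibrils, multiplexins lie in basement membrane zones, and a few collagens span the cell membrane. Fibroblasts, smooth muscle cells and endothelial cells make most of the RNA, and new chains are folded in the endoplasmic reticulum with a dedicated chaperone, HSP47.

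The first question was how much of each collagen RNA the organs held without phosphine. The 60 Air arrays gave 16 values for brain, 14 for heart, 16 for kidney, 4 for liver and 10 for lung. RNA integrity was read from the signal difference between 3' and 5' probe sets of the beta-actin control. On Air arrays it averaged from 1.85 in heart to 3.59 in brain, and its part in the organ levels was not tested. Lung was the highest organ for 19 of the 37 collagen genes, or 51.4%, against 22.1% of all genes. For 14 of the 19, lung differed from the next organ at an adjusted p under 0.05 (limma). Col10a1 is among the 19 by its lung mean of 4.49, which includes 7.05 in Air rat 133. Its lung median, 4.02, lay below its liver median, 4.075. Brain was the lowest organ for 16 of the 37 collagen genes, and for 34.7% of all genes. The difference between the highest and the lowest organ had a median of 3.20 on the log2 scale over the collagen genes, which is 9.16-fold, against 1.64 over all genes. It exceeded 3 for 21 collagen genes, or 56.8%, against 26.6% of all genes. For 24 of the 37 the signal in the lowest organ was in the third of that organ's genes with the lowest signal, called dim here, where a signal near background would understate the difference.

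**Figure D1:**
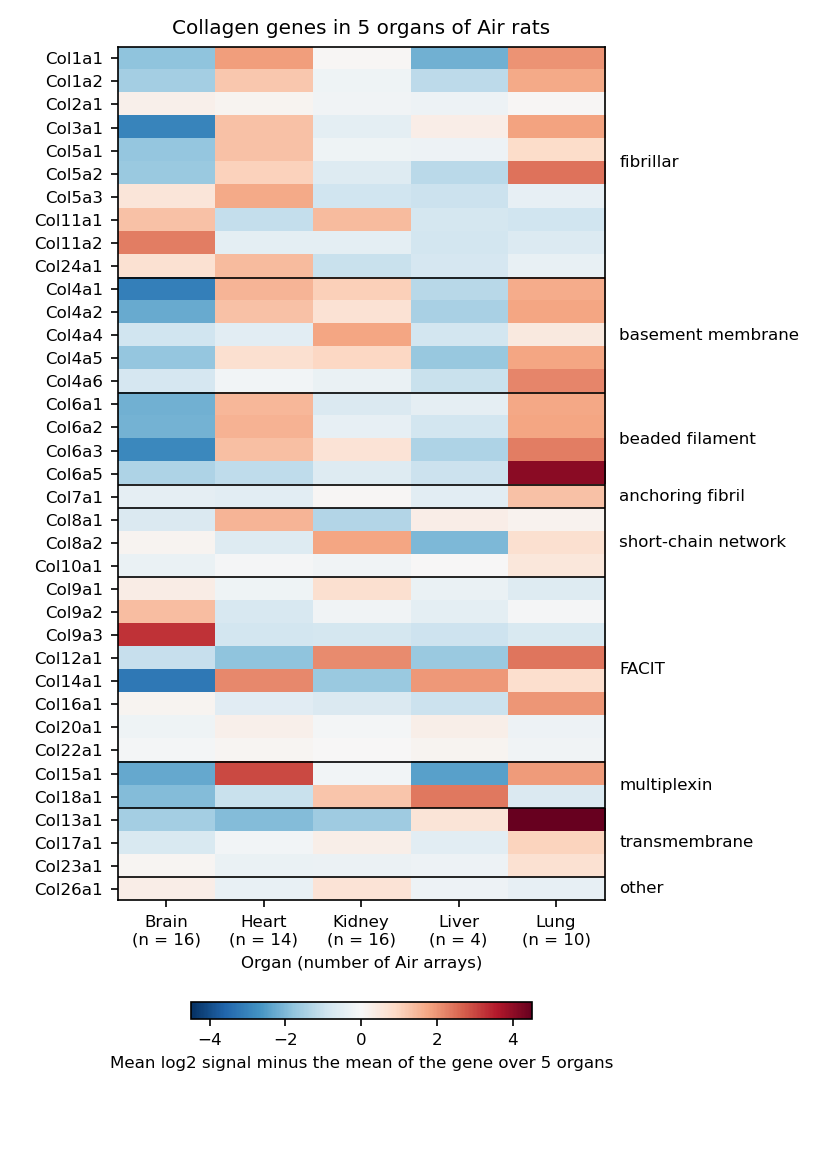
Mean log2 signal of each collagen gene (rows, by class) in each organ of Air rats (columns), shown as the difference from the mean of that gene over the 5 organs. Red is above and blue below that mean. Lung was highest for 19 genes (22.1% of all genes) and brain lowest for 16 (34.7% of all genes).

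Limma fits of the Air arrays compared all 10 pairs of organs. Brain and lung differed at an adjusted p under 0.05 for 34 of 37 collagen genes, where 76.9% of all genes did, and 26 of the 34 were higher in lung. Brain and heart differed for 33 (82.6% of all genes), with 22 higher in heart. Brain and kidney differed for 32 (82.6%), and 23 were higher in kidney. Brain and liver differed for 25 (78.1%), divided into 12 higher in brain and 13 in liver. Of the collagen genes that differed, most were lower in brain than in lung, heart or kidney, and so were most of all genes that differed. Over all genes 5990 of 10331 were higher in lung, 6406 of 11106 in heart and 6750 of 11101 in kidney. Against liver, 5914 of 10501 were higher in liver.

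Heart exceeded liver for 19 of the 21 collagen genes that differed between them (65.1% of all genes differed), and kidney exceeded liver for 19 of 25 (61%). Lung exceeded liver for 23 of 27 (70.6%), kidney for 25 of 32 (70.7%) and heart for 19 of 28 (76.9%). Heart and kidney differed for 29 genes (75.2%), of which 16 were higher in heart. Over all genes that differed, heart exceeded liver for 4494 of 8750 and kidney exceeded liver for 4540 of 8193. Lung exceeded liver for 5053 of 9493 of all genes that differed, kidney for 4863 of 9497 and heart for 5676 of 10331. Heart exceeded kidney for 4964 of 10100. Ranked within each gene, 85 of 148 steps between neighbouring organs passed the threshold. All 4 steps passed for Col3a1, Col4a2, Col5a2, Col6a3, Col8a2 and Col18a1. None passed for Col2a1, Col10a1 and Col22a1. Those 3 genes and Col9a1, Col17a1, Col20a1, Col23a1 and Col26a1 were dim in every organ, so their order rests on dim probe sets.

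Among fibrillar collagens, the major stromal chains were highest in lung or heart. Col1a1, a chain of type I collagen, ran from 10.31 to 11.18 on the 10 lung arrays with a median of 10.80, and from 5.91 to 8.78 on the 16 brain arrays with a median of 6.78. Its lung and heart means, 10.79 and 10.68, did not differ beyond their spread (adjusted p = 0.634, limma). Col3a1, the chain of type III collagen, ran from 12.33 to 12.71 in lung and from 6.99 to 8.62 in brain. Col5a2, a chain of the type V collagen that starts type I fibrils, was 2.65-fold higher in lung than in heart, the next organ (adjusted p = 4.12e-20, limma). Lung and brain arrays did not overlap for any of these 3 genes.

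The fibrillar chains known from cartilage had another order. Col11a2 ran from 6.51 to 7.83 on brain arrays, with a median of 7.02, and reached at most 4.63 in any other organ. Its brain mean was at least 6.68-fold above that of any other organ (adjusted p = 5.81e-37 against kidney, limma). That fold is given as a lower limit because the gene was dim in all 4 other organs, and their order was not read. Col11a1 had means of 6.64 in kidney and 6.54 in brain, which did not differ beyond their spread (adjusted p = 0.345, limma). Col5a3 and Col24a1 were highest in heart, 2.25-fold and 1.68-fold above brain.

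Of the basement membrane chains, Col4a1 and Col4a2, which form the common type IV network, had the order lung, heart, kidney, liver and brain. Col4a1 ran from 10.73 to 11.45 in lung and from 5.57 to 6.76 in brain, and lung and heart did not differ beyond their spread (adjusted p = 0.189, limma). Col4a4, a chain of the glomerular basement membrane, had a kidney mean of 6.60, which was at least 2.55-fold above lung, where it was dim (adjusted p = 8.12e-15, limma). Col4a6 was 4.94-fold higher in lung than in heart, the next organ. Col18a1, a multiplexin whose fragment is endostatin, was highest in liver, 2.19-fold above kidney. Col15a1, the other multiplexin, was highest in heart, 2.07-fold above lung.

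Wide gaps between the first and the next organ belonged to single lung and brain genes. Col6a5, a later-found chain of type VI collagen, ran from 8.75 to 10.69 in lung, while its highest array elsewhere read 5.57 in kidney. Col13a1, a membrane-spanning collagen, had means of 10.25 in lung and 6.32 in liver, a 15.3-fold difference (adjusted p = 2.65e-25, limma). Col9a3, a FACIT chain of type IX collagen, ran from 7.14 to 8.11 in brain and was at least 15.3-fold above lung (adjusted p = 6.86e-47, limma). Col6a5 and Col9a3 were dim in the 4 other organs, so the order of these gaps was not read. The leading organ lay apart from the other organs for each of these 3 genes, with no overlap of arrays.

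Among the remaining classes, Col16a1 was 3.63-fold higher in lung than in brain and Col7a1, the anchoring fibril collagen of epithelia, at least 2.39-fold higher in lung than in kidney, where it was dim. Col8a1 was highest in heart, 2.35-fold above liver, while Col8a2, its partner in the short-chain network of endothelial sheets, was highest in kidney, 2.09-fold above lung. Col9a2 was highest in brain, 2.74-fold above lung. Col12a1 had means of 9.89 in lung and 9.59 in kidney and lay below 6.54 on every heart array. Col14a1 had means of 9.99 in heart and 9.79 in liver, which did not differ beyond their spread (adjusted p = 0.336, limma), and 4.60 in brain.

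The second question was whether phosphine moved any collagen RNA. In limma fits of each organ with p-values adjusted over all 13439 genes, 0 of 37 collagen genes passed 0.05 in any of the 16 comparisons of PH3 with Air at a single time. Of the 592 pairs of gene and comparison, 43 had an unadjusted p under 0.05. Counts by unadjusted p, here and below, were not read as an excess unless a share of all genes stands beside them. The smallest adjusted p was 0.111, for Col9a3 in heart at 6 h. For 522 pairs, or 88.2%, the 95% interval of the difference lay within 1 log2 unit of no difference on both sides. Averaged over the times of brain, heart, kidney or lung, 0 of 37 passed as well.

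**Figure D2:**
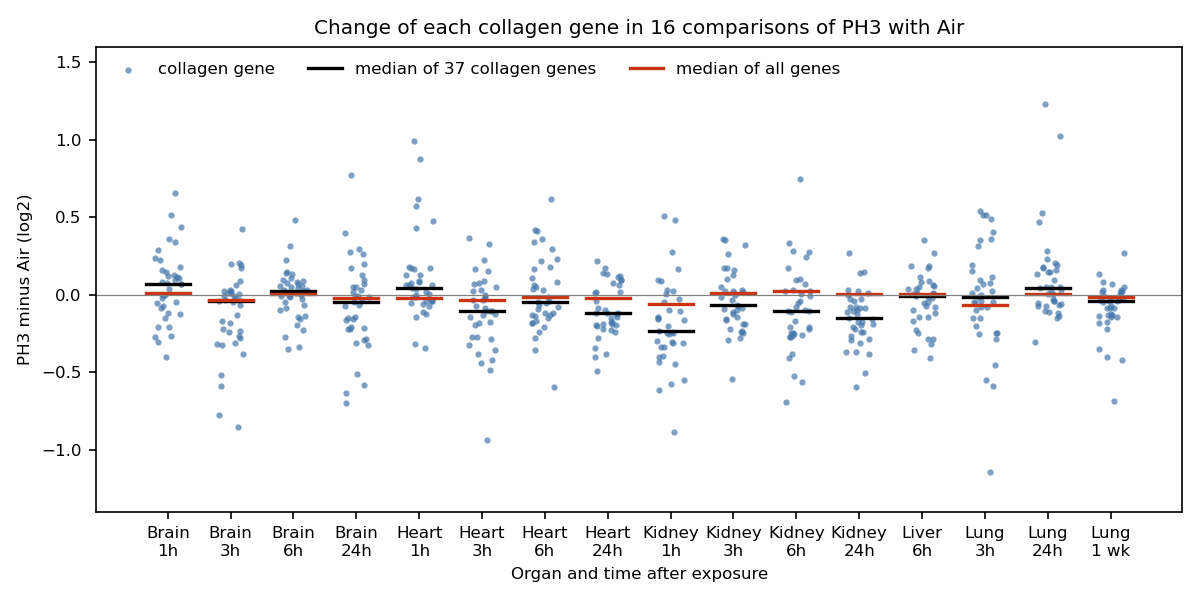
Difference between PH3 and Air means (log2) of each of the 37 collagen genes in 16 comparisons, with the median of the collagen genes in black and that of all genes in red. Most points lie within 1 of 0, and in kidney the black line lies below the red one at all 4 times.

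In kidney most collagen genes had lower means in PH3 than in Air, but none passed the test. At single times 0 of 37 passed at 1, 3, 6 and 24 h, where 0.223%, 0.104%, 0.126% and 0.0149% of all genes did, and 6, 2, 2 and 3 had an unadjusted p under 0.05. Their median difference was -0.23, -0.06, -0.10 and -0.15, against -0.06, 0.01, 0.02 and 0.00 over all genes. The median at 3 h was 0.02, 0.04 and 0.03 without PH3 rat 105, Air rat 108 or PH3 rat 152, and that at 6 h was 0.0016 without Air rat 126. Averaged over the 4 times, 0 of 37 passed (0.848% of all genes), and 13 had an unadjusted p under 0.05, or 35.1% against 9.51% of all genes. Of those 13, 11 were lower in PH3 and 2 higher. The median over the collagen genes was -0.15, and 28 of 37 were below 0. At every one of the 4 times 14 collagen genes had a lower mean in PH3, or 37.8% against 6.95% of all genes. Collagen genes that vary together between rats move such counts together, so the 37 are not independent. In kidney Col1a1 and Col6a1 had r = 0.90 after group means were removed.

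The kidney gene with the smallest p was Col6a3, the long chain of type VI collagen. At 1 h its Air arrays read 10.11, 9.63, 10.13 and 10.02 and its PH3 arrays 9.73, 9.96, 9.76 and 9.83. At 3 h they read 9.67, 10.14, 9.69 and 9.87 in Air and 9.76, 9.54, 9.41 and 9.69 in PH3. At these times the groups overlapped, and the PH3 arrays lay inside or below the Air range. At 6 h the Air arrays read 10.37, 10.06, 9.78 and 9.80 and the PH3 arrays 9.76, 9.71, 9.78 and 9.68. At 24 h they read 9.65, 9.63, 9.72 and 9.88 in Air and 9.50, 9.57, 9.11 and 9.17 in PH3. All PH3 arrays lay below all Air arrays at 24 h, as for 1 of 37 collagen genes and 0.707% of all genes. The mean over the 4 times was -0.26 ± 0.07 (SE), 0.833-fold, with adjusted p = 0.0523 (limma). Col6a3 missed the threshold, and it passed under 7 of 39 alternatives. It passed when 1 of 5 arrays was left out, with adjusted p = 0.0340 without PH3 rat 85, 0.0358 without PH3 rat 105, 0.0229 without Air rat 107, 0.0433 without Air rat 138 and 0.0413 without Air rat 156.

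The stromal fibrillar chains of kidney had differences of the same sign but wider errors. Col1a1 averaged -0.40 ± 0.18 (SE; adjusted p = 0.449, limma), Col1a2 -0.22 ± 0.10, Col3a1 -0.28 ± 0.12, Col5a1 -0.21 and Col5a2 -0.22 ± 0.09. At 24 h Col1a1 read 8.67, 8.06, 8.86 and 8.42 in Air and 7.84, 8.24, 8.28 and 7.63 in PH3. The groups overlapped because 1 Air array lay within the PH3 range. Of the 10 fibrillar genes 9 averaged below 0, with a median of -0.21, and 0 passed (5 had an unadjusted p under 0.05).

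Other classes of collagen in kidney had differences of either sign. The multiplexin Col15a1 averaged -0.39 ± 0.14 (adjusted p = 0.264, limma), and Col26a1, a small collagen of the stroma, -0.36 ± 0.14 (adjusted p = 0.284). At 1 h Col26a1 read 5.21, 5.78, 5.30 and 5.90 in Air and 4.72, 4.52, 5.09 and 4.30 in PH3, so the groups did not overlap. PH3 lay below Air without overlap at 1 h for 3 of 37 collagen genes and 1.98% of all genes. The type IV chains Col4a1, Col4a2 and Col4a5 averaged -0.09, -0.04 and -0.03. Col4a4 averaged 0.27 ± 0.11 (adjusted p = 0.389), with 5.88, 6.30, 6.01 and 6.05 in Air and 6.27, 6.66, 7.15 and 7.17 in PH3 at 6 h. At that time only the lowest PH3 array of Col4a4 lay within the Air range. Col7a1 averaged 0.18 ± 0.08 (adjusted p = 0.461). Col4a4 and Col7a1 were also the 2 collagen genes with a higher PH3 mean at every time, or 5.41% against 5.83% of all genes. Col7a1 was dim in kidney.

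**Figure D3:**
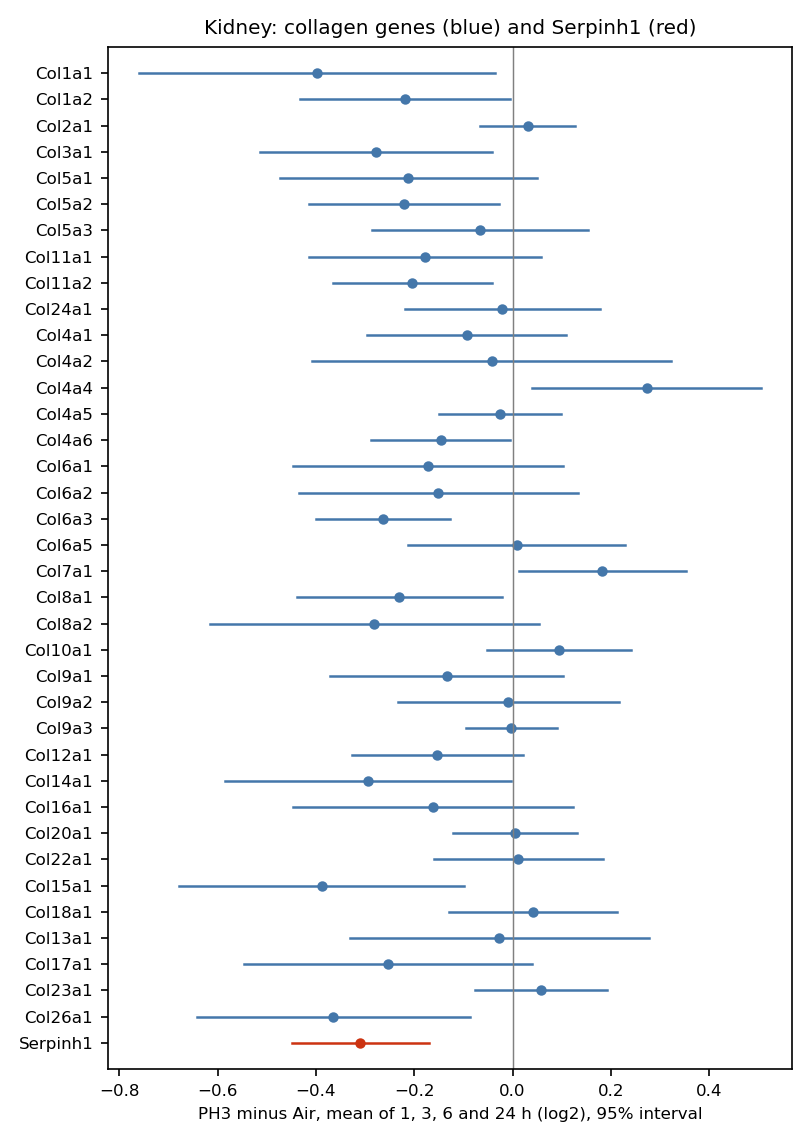
Difference between PH3 and Air averaged over 1, 3, 6 and 24 h in kidney (log2, dots) with 95% intervals (lines) for the 37 collagen genes in blue and for Serpinh1 in red. The collagen genes centre on a median of -0.15, and Serpinh1, at -0.31, was the one gene shown that passed the adjusted threshold.

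Of 18 measured genes that modify and fold collagen chains, 1 fell and 1 rose in the kidney average, where 0.848% of all genes passed. Serpinh1, which encodes the collagen chaperone HSP47, fell by 0.31 ± 0.07 (SE; adjusted p = 0.0211, limma). At 1 h it read 10.37, 10.60, 10.34 and 10.53 in Air and 9.95, 10.13, 10.19 and 9.78 in PH3. At 3 h it read 10.21, 10.37, 10.29 and 9.99 in Air and 9.77, 10.04, 9.76 and 9.69 in PH3. The groups did not overlap at 1 h and overlapped by a single pair of arrays at 3 h. At 6 h it read 10.17, 10.10, 10.35 and 10.00 in Air and 9.72, 10.04, 10.03 and 9.20 in PH3. At 24 h it read 9.92, 9.88, 10.07 and 9.90 in Air and 9.90, 9.99, 10.13 and 9.80 in PH3. The difference was thus -0.45, -0.40, -0.41 and 0.01 from 1 to 24 h, though a limma F test of the times did not separate them (adjusted p = 0.83).

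The fall of Serpinh1 passed in all 32 fits that left out 1 array. It did not pass when 1, 3 or 6 h was left out of the average, with adjusted p = 0.178, 0.215 and 0.186. Its probe set carries the suffix for sets that can detect more than 1 transcript. Tmem38b, an endoplasmic reticulum channel gene in which loss causes brittle bone, rose by 0.26 ± 0.06 (adjusted p = 0.0427, limma) and passed in 12 of 39 alternatives. Of 5 procollagen processing genes, 6 crosslinking genes, 14 fibril partners and 5 collagen receptors, 0 passed in the kidney average, with medians of -0.08, -0.19, -0.15 and -0.14. Unadjusted p was under 0.05 for 0, 3, 4 and 1 of them. Pxdn, the peroxidasin that crosslinks type IV collagen, averaged -0.35 (adjusted p = 0.0722).

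Markers of fibroblasts, cells that make collagen, had differences of the same sign. Of 12 fibroblast markers in kidney, 11 averaged below 0, with a median of -0.18, and 0 passed (4 had an unadjusted p under 0.05). Their mean level ran from 7.18 to 8.11 over the Air arrays and from 7.23 to 7.81 over the PH3 arrays. The 10 endothelial markers had a median of -0.04 and the 10 smooth muscle and pericyte markers -0.07, with 0 passing in either (0 and 1 with an unadjusted p under 0.05). Among the other marker lists, Acta1, 1 of 4 measured skeletal muscle markers, rose by 0.66 in the kidney average (adjusted p = 0.00135, limma). At 1 h it rose by 1.10 (adjusted p = 0.0186). Foxc1, 1 of 12 markers of meninges and choroid plexus, rose by 0.20 in the average (adjusted p = 0.0304). No other member of these lists passed in the average, where 0.848% of all genes did. Neither list was read from its single gene. The signal difference between 3' and 5' probe sets of the beta-actin control, a measure of RNA integrity, averaged 3.30 in Air and 3.23 in PH3 kidneys. The part of the fibroblast share in the kidney differences was not tested.

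In heart, 0 of 37 collagen genes passed at 1, 3, 6 or 24 h, where 0.0521%, 0.238%, 2.7% and 0% of all genes did, and 3, 3, 5 and 0 had an unadjusted p under 0.05. The average over times gave 0 of 37 as well (0.863% of all genes), with 2 under an unadjusted p of 0.05. At 24 h, where limma passed 0 genes of any kind, 405 of all genes had an unadjusted p under 0.05. The heart at 6 h was the comparison in which most genes passed, and the collagen genes there had a median of -0.05 and a range from -0.59 to 0.62.

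At 6 h in heart Col9a3, a dim gene there, read 3.35, 3.44, 3.48 and 3.57 in Air and 3.49, 3.63, 4.07 and 4.31 in PH3. The difference was 0.41 ± 0.14 (adjusted p = 0.111, limma), and without PH3 rat 134 it was 0.54 with adjusted p = 0.0294. Col4a1 read 10.67, 10.82, 10.90 and 10.92 in Air and 10.95, 11.00, 11.06 and 11.18 in PH3, a difference of 0.22 ± 0.09 (adjusted p = 0.217). All PH3 arrays of Col4a1 lay above all Air arrays, as for 2 of 37 collagen genes and 4.76% of all genes. Col14a1, a FACIT collagen, read 9.95, 9.96, 10.07 and 10.41 in Air and 9.37, 9.68, 9.72 and 10.19 in PH3, a difference of -0.36 ± 0.15 (adjusted p = 0.240).

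At 1 h in heart the largest differences among collagen genes came from the cartilage collagens Col2a1 and Col10a1 on 1 array. Col2a1 read 8.01 and Col10a1 7.40 in PH3 rat 116, where the other 28 heart arrays reached at most 4.66 and 4.42. Their differences were 0.996 and 0.88 with that array and -0.03 and 0.01 without it. The mean of 9 cartilage markers was 4.97 on that array and at most 4.61 on the others. Matn1, the cartilage matrix protein matrilin, read 6.61 there against at most 5.42. Comp and Chad were also highest there, and Acan only just, at 6.45 against 6.43. Cnmd, Hapln1, Snorc, Ucma and Clec3a were highest on other heart arrays, as were Col9a1 and Col9a3.

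The collagen genes with the smallest p at the earlier times of heart were others. At 1 h Col4a4, a dim gene in heart, read 3.75, 4.10, 4.14 and 4.19 in Air and 4.39, 4.39, 4.64 and 4.69 in PH3. The difference was 0.48 ± 0.18 (adjusted p = 0.502, limma). At 3 h Col8a2 read 5.81, 5.95, 5.97 and 6.23 in Air and 4.35, 5.11, 5.22 and 5.53 in PH3, a difference of -0.94 ± 0.33 (adjusted p = 0.212). Neither gene's groups overlapped, as for 2 of 37 collagen genes against 1.9% of all genes in that direction at 1 h, and 2 of 37 against 4.23% at 3 h. Col1a1 at 3 h differed by -0.44 ± 0.21 (adjusted p = 0.367), and its value was 0.05 at 1 h. No collagen gene passed the limma F test for a difference between times (0.268% of all genes did; 4 had an unadjusted p under 0.05).

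Of 16 genes of collagen breakdown and its inhibitors, 2 rose in heart at 6 h, Timp1 and Adamts1. In that comparison 2.7% of all genes passed in either direction. Timp1, an inhibitor of the metalloproteinases that cut collagen, had a mean of 8.48 ± 0.30 (SD, n = 4) in Air and 10.69 ± 1.28 (SD, n = 4) in PH3. The rise was 2.21 ± 0.35 (SE; adjusted p = 0.000520, limma) and held in all 8 fits without 1 array. Adamts1, a secreted metalloproteinase, rose by 1.16 ± 0.22 (adjusted p = 0.00278), also in all 8. PH3 arrays lay above Air arrays for both. With only the arrays of these 2 groups in the fit, neither passed (adjusted p = 0.118 for Timp1 and 0.1005 for Adamts1). In the average over times Dcn, the fibril-binding proteoglycan decorin, fell by 0.15 ± 0.04 (adjusted p = 0.0444), and kept that call in 9 of 29 fits without 1 array. Serpinh1 in heart differed by -0.42 ± 0.11 at 3 h (adjusted p = 0.0845) and by -0.40 ± 0.11 at 6 h (adjusted p = 0.0538).

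In liver at 6 h, 0 of 37 collagen genes passed (0.238% of all genes; 3 had an unadjusted p under 0.05). Col14a1 read 9.64, 9.70, 9.91 and 9.92 in Air and 9.22, 9.39, 9.49 and 9.63 in PH3, a difference of -0.36 ± 0.12 (adjusted p = 0.176, limma). Col6a3 read 7.72, 7.77, 7.93 and 8.13 in Air and 7.26, 7.34, 7.52 and 7.79 in PH3, a difference of -0.41 ± 0.15 (adjusted p = 0.215). The groups did not overlap for Col14a1 and did for Col6a3. Col5a3, a dim gene in liver, differed by -0.32 ± 0.14 (adjusted p = 0.347). The groups lay apart with PH3 below for 3 of 37 collagen genes and 3.91% of all genes.

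In lung, 0 of 37 collagen genes passed at 3 h, 24 h or 1 week (0.298%, 0% and 0% of all genes), and 3, 0 and 0 had an unadjusted p under 0.05. At 24 h and 1 week 190 and 285 of all genes had an unadjusted p under 0.05. The average over times gave 0 of 37 (0.216% of all genes; 2 under an unadjusted p of 0.05). At 3 h Col24a1, a minor fibrillar chain that was dim in lung, read 4.60 and 4.70 in Air and 4.18, 4.18, 4.21 and 4.21 in PH3. The difference was -0.45 ± 0.14 (adjusted p = 0.220, limma). Col13a1 read 10.11 and 10.35 in Air and 9.19, 9.51, 9.77 and 10.10 in PH3, a difference of -0.59 ± 0.24 (adjusted p = 0.376). Col8a2 read 6.77 and 7.49 in Air and 5.32, 5.80, 6.37 and 6.46 in PH3, a difference of -1.14 ± 0.48 (adjusted p = 0.384).

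PH3 lay below Air without overlap for 6 of 37 collagen genes at 3 h in lung, and for 26% of all genes, with 2 Air arrays in the comparison. With array weights in limma, Col8a2, Col13a1, Col17a1 and Col24a1 passed there at adjusted p = 0.00955, 0.0145, 0.0406 and 0.00278. The same weights took the number of all genes that passed from 40 to 2561. Tmem38b rose in lung at 3 h, from a mean of 7.36 to 8.51 (difference 1.15 ± 0.25, adjusted p = 0.0489, limma), and kept that call in 1 of 6 fits without 1 array.

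A set of lung collagens was high on 3 arrays, of 2 PH3 rats and 1 Air rat. Col2a1, the main fibrillar collagen of cartilage, read 8.60 on the array of PH3 rat 147 at 3 h, 8.51 on that of PH3 rat 70 at 24 h and 5.86 on that of Air rat 133 at 1 week, while the other 18 lung arrays ran from 3.17 to 4.78. Col10a1, the collagen of hypertrophic cartilage, read 9.36, 9.21 and 7.05 on those arrays and from 3.77 to 5.49 on the others. Col9a1 and Col9a3 of type IX collagen read 6.07 and 5.71 in PH3 rat 147, where the other 18 arrays reached at most 3.72 and 3.79. Col11a1 and Col11a2 were also higher on these 3 arrays than on any other lung array. The mean of 9 cartilage markers was 4.98, 4.75 and 4.19 on the 3 arrays and 3.79 to 4.09 on the other 18. Matn1 read 6.68, 6.39 and 5.64 against at most 4.98. In Air rat 133 only Matn1 and Comp of the 9 exceeded the other 18 arrays, and Acan read 4.95 against at most 5.09. Hapln1, Snorc and Ucma of PH3 rat 70 also lay within the range of the other 18. Col9a2, another type IX chain, read 6.15, 6.43 and 5.45 on the 3 arrays and 5.32 to 6.23 on the other 18.

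**Figure D4:**
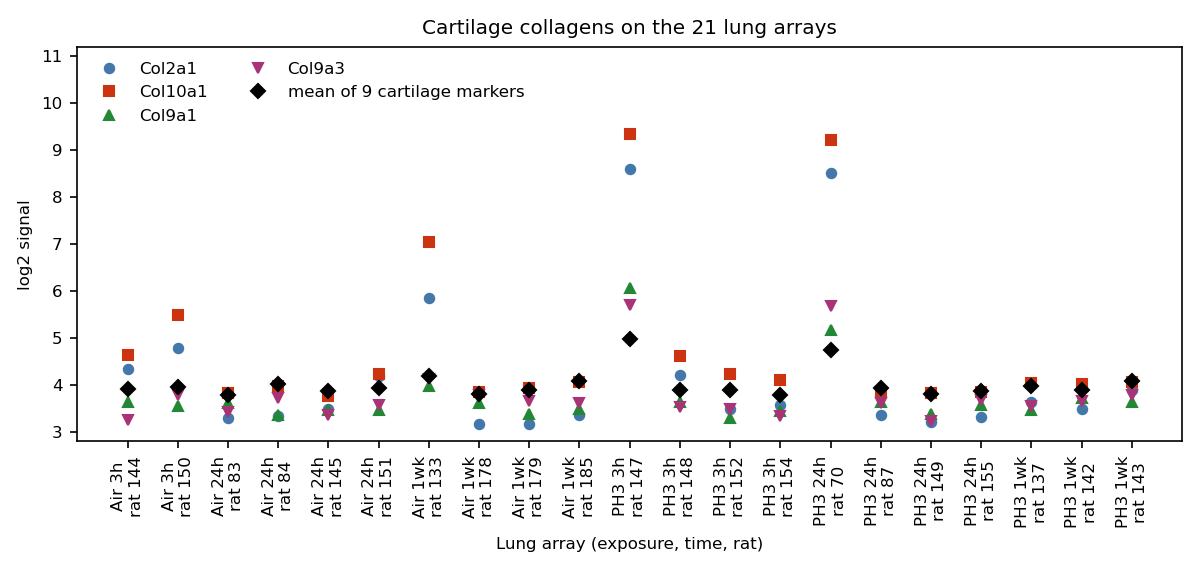
Log2 signal of Col2a1, Col10a1, Col9a1 and Col9a3 and the mean of 9 cartilage markers on each of the 21 lung arrays, named by exposure, time and rat. PH3 rat 147, PH3 rat 70 and Air rat 133 stand above the other 18 arrays for Col2a1 and Col10a1.

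The sign of the Col10a1 and Col2a1 differences in lung turned without these arrays. At 24 h the difference between PH3 and Air was 1.23 for Col10a1 and 1.02 for Col2a1, and -0.11 and -0.28 without the 3 arrays. At 3 h it was 0.52 and 0.41, and -0.74 and -0.80 without them. At 1 week it was -0.68 and -0.22, and 0.09 and 0.43 without them. Other chains found in cartilage did not all turn. At 24 h Col9a1 differed by 0.47 and Col11a2 by 0.23, and by 0.06 and 0.05 without PH3 rat 70. At 1 week Col11a2 differed by 0.09, and by 0.16 without Air rat 133. At each time 0 of 37 collagen genes passed with or without these arrays. Tmem38b at 3 h was 1.04 without them (adjusted p = 0.175).

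In brain, 0 of 37 collagen genes passed at 1, 3, 6 or 24 h (0.00744%, 0.00744%, 0.00744% and 0.0298% of all genes), and 1, 7, 0 and 5 had an unadjusted p under 0.05. The average over times gave 0 of 37 (0.0893% of all genes; 5 under an unadjusted p of 0.05). At 3 h the 7 genes made 18.9% of the collagens against 4.03% of all genes. Collagen genes were not independent in brain either, with r = 0.86 between Col1a1 and Col1a2 after group means were removed. Col3a1 read 7.58, 7.85, 8.52 and 8.62 in Air and 6.46, 7.64, 7.66 and 7.71 in PH3, a difference of -0.77 ± 0.31 (adjusted p = 0.999, limma). Col1a1 read 6.67, 7.0, 7.68 and 8.78 in Air and 6.11, 6.60, 6.88 and 7.12 in PH3, a difference of -0.85 ± 0.39. The groups overlapped for both, the lowest PH3 array of each gene being that of rat 122, and Col1a2 and Col5a2 differed by -0.52 and -0.31. Without PH3 rat 122 the difference of Col3a1 was -0.47 and that of Col1a2 -0.27. Without Air rat 97, the highest for Col1a1, that of Col1a1 was -0.44 and that of Col1a2 -0.28.

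At 1 h in brain Col1a1, Col1a2, Col3a1 and Col5a2 had differences above 0. Col1a1 read 6.63, 6.72, 7.20 and 7.28 in Air and 6.77, 7.31, 7.38 and 9.005 in PH3, a difference of 0.66 ± 0.39 (adjusted p = 0.982, limma). The array at 9.005 was that of PH3 rat 115, and without it Col1a1 differed by 0.20, Col1a2 by 0.09, Col5a2 by 0.03 and Col3a1, at 0.22 with it, by -0.06. Col6a3 differed by 0.44 ± 0.17 (adjusted p = 0.908), and by 0.34 without that array. The limma F test separated the times for 0 of 37 collagen genes (0% of all genes; 1 with an unadjusted p under 0.05). The fibroblast markers of brain had medians of 0.26 at 1 h and -0.13 at 3 h, and 12 markers of meninges and choroid plexus 0.07 and -0.16, and their part in the collagen values was not tested.

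At 24 h in brain Col11a2 read 6.86, 7.05, 7.51 and 7.83 in Air and 6.46, 6.59, 6.87 and 7.001 in PH3, a difference of -0.58 ± 0.18 (adjusted p = 0.195, limma). The groups overlapped because the lowest Air array lay within the PH3 range. Without Air rat 83 the difference was -0.73 with adjusted p = 0.0443. Col9a2, a type IX chain, read 5.90, 6.83, 7.33 and 7.84 in Air and 7.46, 7.54, 7.95 and 8.06 in PH3, a difference of 0.77 ± 0.32 (adjusted p = 0.321).

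Markers of brain region differed in the same comparison. The mean of 10 markers of cerebellum and brain stem was 4.73 and 4.82 in Air rats 89 and 145, 7.10 and 6.82 in Air rats 83 and 84, and 7.03 to 7.91 in PH3. Of the 10, 9 were higher in PH3, with a median difference of 1.24, and Hoxb5 and Hoxc4, patterning genes of hindbrain and spinal cord, passed at 1.63 and 1.36 (adjusted p = 0.0390 for both, limma). En2 and Cbln1, genes of the cerebellum, differed by 2.85 and 1.92 (adjusted p = 0.148 for both). Without Air rats 89 and 145 the difference of Col11a2 was -0.22 and that of Col9a2 0.16. In the same fit En2 differed by 0.38 and Cbln1 by 0.30, but Hoxb5 still by 1.45 and Hoxc4 by 1.17. Neither Hox gene passed there. The part of brain region in the collagen values was not tested beyond leaving out these arrays.

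Change with time alone was tested in Air rats. Limma F tests of the Air groups passed 0 of 37 in brain, heart, kidney and lung (0.00744%, 0.0595%, 0.0744% and 0% of all genes), with 3, 3, 4 and 1 under an unadjusted p of 0.05. The same F test of the PH3 effect by time passed 0 of 37 in kidney and lung (0% of all genes in both), with 3 and 0 under an unadjusted p of 0.05. Col5a3 in Air hearts had the smallest adjusted p, 0.317, and 0.0155 with array weights.

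The last question was whether chains that assemble into one molecule varied together between rats once exposure and time were taken out. The 9 pairs also held Col1a1 with Col3a1 and Col15a1 with Col18a1, which are chains of different collagen types. The counts of passing pairs include them. Each gene's group mean was removed, and 9 pairs of chains were correlated over the arrays of each organ, 45 relations in all with p-values from 100000 permutations within groups. After adjustment over the 45, Pearson's r passed for 4 pairs in brain, 5 in heart, 6 in kidney, 0 in liver and 7 in lung. Liver had 11 arrays.

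Col1a1 and Col1a2, which join in the type I molecule and lie on chromosomes 10 and 4, had r = 0.86 and rho = 0.86 in brain over 32 arrays (adjusted p = 0.00027 and 0.000225, permutation). In heart r was 0.90 and rho 0.86 over 29 arrays (adjusted p = 0.000225 for both). Col1a2 was the gene most alike to Col1a1 among 13438 other genes in both organs. In kidney r was 0.85 and rho 0.83 over 32 arrays (adjusted p = 0.000225 for both), and Col1a2 ranked 10. In lung r was 0.74 and rho 0.74 over 21 arrays (adjusted p = 0.0106 and 0.00746), with rank 115. In liver r was 0.62 and rho 0.73 over 11 arrays (adjusted p = 0.109 and 0.0527). Without the 2 arrays farthest from the median of Col1a1, r was 0.80, 0.87, 0.82, 0.65 and 0.41 in brain, heart, kidney, lung and liver.

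**Figure D5:**
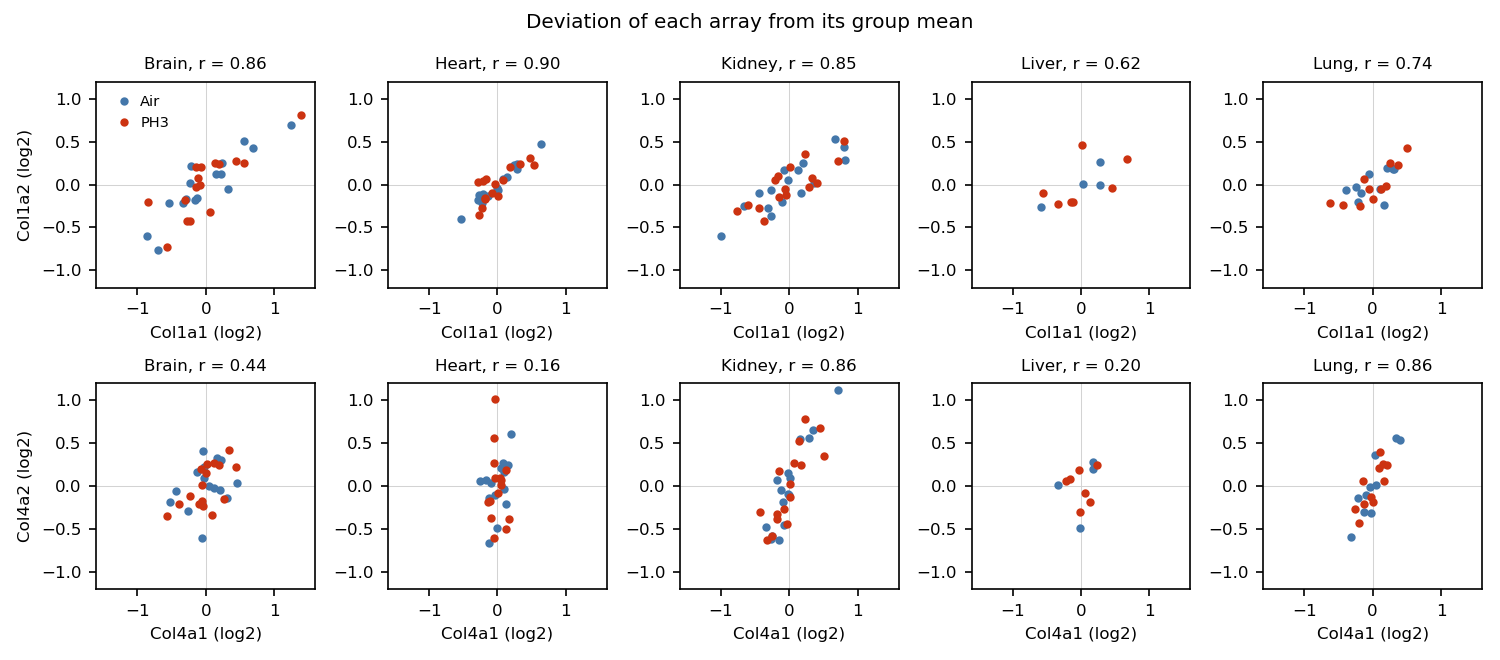
Deviation of each array from its group mean (log2) for Col1a1 against Col1a2 (upper row) and Col4a1 against Col4a2 (lower row) in each organ, with Air arrays in blue and PH3 arrays in red. The type I chains line up in brain, heart and kidney, while Col4a1 hardly varied in heart.

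Col4a1 and Col4a2, which join in type IV collagen, are neighbours that start back to back on chromosome 16. In the RefSeq table of GRCr8 their start sites were 77 bases apart. The window of 300 bases at the start of Col4a1, chr16:84885347-84885646 on the plus strand, is shown because it holds both start sites, that of Col4a1 at position 251 and that of Col4a2 at position 174. The window at the start of Col1a2, chr4:33518307-33518606 on the plus strand, is shown beside it as that of a chain whose partner lies on another chromosome. Both are given 5' to 3', and capitals mark matches to CCAAT or its reverse ATTGG and to GGGCGG or its reverse CCGCCC.
Col4a1: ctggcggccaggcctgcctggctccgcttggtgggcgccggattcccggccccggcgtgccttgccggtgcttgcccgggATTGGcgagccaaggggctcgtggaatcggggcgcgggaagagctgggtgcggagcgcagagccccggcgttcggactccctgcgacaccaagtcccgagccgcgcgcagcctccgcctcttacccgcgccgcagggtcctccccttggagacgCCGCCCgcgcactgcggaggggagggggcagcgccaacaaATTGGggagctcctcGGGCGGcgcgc
Col1a2: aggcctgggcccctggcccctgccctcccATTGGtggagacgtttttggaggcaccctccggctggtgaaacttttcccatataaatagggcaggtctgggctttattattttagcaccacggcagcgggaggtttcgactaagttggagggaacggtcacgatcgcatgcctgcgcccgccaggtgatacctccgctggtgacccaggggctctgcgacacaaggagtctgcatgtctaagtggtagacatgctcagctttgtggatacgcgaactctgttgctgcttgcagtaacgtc
CCAAT was found on either strand in 9 of the 29 collagen windows present in the table and in 37.5% of all 33469 windows. GGGCGG was in 16 of 29, or 55.2%, against 33.1% of all windows, and TATAAA in 4 of 29 against 14.2%. A match describes the letters only.

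The correlation of Col4a1 with Col4a2 differed in size between organs, a difference that was not tested. In kidney r was 0.86 and rho 0.85 over 32 arrays (adjusted p = 0.000225 for both, permutation), and Col4a2 ranked 24 among the genes most alike to Col4a1. In lung r was 0.86 and rho 0.81 over 21 arrays (adjusted p = 0.00115 and 0.00442), with rank 157. In brain r was 0.44 and rho 0.50 over 32 arrays (adjusted p = 0.0417 and 0.0209), with rank 2806. In heart r was 0.16 and rho 0.23 over 29 arrays (adjusted p = 0.554 and 0.396). Col4a1 had an SD of 0.11 after removal of group means in heart and 0.26 in kidney. Without the 2 farthest arrays r was 0.85 in kidney, 0.79 in lung and 0.36 in brain.

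Other pairs had unequal r between organs, a difference that was not tested. Col6a1 and Col6a2, chains of type VI collagen whose genes lie 97.1 kb apart on chromosome 20, had r = 0.86 in kidney (rank 39), 0.84 in lung (rank 8) and 0.63 in heart (rank 24), with rho of 0.79, 0.85 and 0.55. The adjusted permutation p-values of r were 0.000225, 0.0009 and 0.00702. Col6a1 and Col6a3, another chain of the same molecule, had r = 0.23 in kidney and 0.26 in lung, which did not pass, and 0.61 in heart. In lung Col9a1 and Col9a3 had r = 0.95 and rho = 0.83 over 21 arrays (adjusted p = 0.0101 and 0.0229), and without PH3 rats 147 and 70 and Air rat 133 r was 0.19. That relation rested on the 3 lung arrays high in cartilage genes.

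The genes with the highest r to Col1a1 were Col1a2, Ccdc3 and Bglap in brain, Col1a2, Cdca7 and Vim in heart, Col6a1, Galnt16 and Eln in kidney, and Col5a1, Lnx2 and Hamp in lung, with r from 0.77 to 0.90. Those most alike to Col4a1 were Pbxip1, Prdm2 and Gstm1 in brain, Efemp2, Gabpb1 and Cadm3 in heart, Eva1b, Icam1 and Bgn in kidney, and Klhl30, Prrc1 and Qsox2 in lung. In liver they were Fam3d, Klrc1 and S100a6 for Col1a1 and Hes5, Fgf12 and Gli2 for Col4a1, over 11 arrays.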

How the data were processed

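The deposited values are log2 signals of 31139 probe sets. RMA and the programs Partek and Affymetrix Expression Console appear in the submitters' processing notes, without versions. That the deposited values are log2 was read from their range, 2.60 to 14.4. RMA normalises arrays to a common distribution, which can hide shifts shared by most genes. Probe sets were named from the platform annotation: 19069 had 1 symbol, 572 several and 11498 none. In the organ comparison each gene kept 1 probe set over all organs. Within an organ, limma 3.58.1 (R 4.3.3) estimated a mean for every group, with eBayes and its trend option. Benjamini-Hochberg adjustment ran over the 13439 genes of a comparison, with a threshold of 0.05.

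Rats were separate animals by the labels, and Air and PH3 rats were not paired. Data were simulated with noise independent between genes and 200 of 13439 genes changed by 1 on the log2 scale at every time. Of these, 59.5% (lung at 3 h) to 92% (heart at 6 h) were recovered at single times and 96.5% in the kidney average. These shares do not describe smaller differences or, for the average, changes at 1 time only. The farthest collagen difference from 0 in the kidney average was -0.40. The named genes are those that passed, the 3 with the smallest p per comparison, a panel of 12 major chains, the leading genes per organ, the genes most alike to Col1a1 and Col4a1, and passing pathway members. Others, and the cartilage arrays of lung and heart, were chosen after their values were seen. Members and lists were chosen with earlier results of these data known. Promoter windows came from RefSeq (GRCr8). Plots were drawn with matplotlib 3.10.9. Alternatives are in the closing section.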

Additional observations from a re-analysis of the deposited data

Results flagged for a closer look

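In groups of 4 arrays the highest or lowest array was set against the spread of its group by Dixon's test for the named genes. Of 89 groups tested, 4 held an array far from the others, where chance gives 4.45. Col3a1 read 6.46 in brain of PH3 rat 122 at 3 h, and the others of its group 7.64 to 7.71. Col15a1 read 8.14 in kidney of Air rat 126 at 6 h, and the others 6.98 to 7.16. Col5a3 read 4.57 in liver of the same rat, and the others 4.25 to 4.31. Col5a3 read 5.61 in lung of Air rat 185 at 1 week, and the others 4.84 to 4.92.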

How the results depend on the processing

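Of 1426 values under alternatives of genes named by the rule, 1 changed sign, that of Col4a2 in lung at 24 h, which went from -0.31 to 0.024 with array weights and passed in neither. Of the rest, 1337 kept their side of the threshold, 12 came to pass and 76 no longer passed. Of 399 medians over the collagen genes, 57 changed sign. Without PH3 rats 147 and 70 and Air rat 133 the lung differences of Col10a1 and Col2a1 turned to -0.74 and -0.80 at 3 h, -0.11 and -0.28 at 24 h, and 0.0896 and 0.43 at 1 week. Leaving out 1 array gave 1 passing collagen gene in brain at 24 h, 1 in heart at 6 h, and from 0 to 1 in the kidney average. The kidney average also gave 1, Col6a3, when the dimmest genes were left out and with quantile normalization. Array weights gave 1 in the Air times of heart and 4 in lung at 3 h. Leaving out 1 array from the averages over times was added after seeing the data, as were the averages without 1 time and the lung fit without 3 arrays. Between organs, leaving out the dimmest genes left fewer collagen genes to test, and 19 differed between brain and heart, 19 between brain and kidney, 15 between brain and liver, 19 between brain and lung, 18 between heart and kidney, 15 between heart and lung, 15 between kidney and liver, 18 between kidney and lung and 17 between liver and lung. With the rat as a replicate block the organ pairs gave the same 286 calls of 370, for instance 34 between brain and lung. Median centring gave 291 calls, 266 of them shared. For the chain pairs, r of Col9a1 and Col9a3 in brain was -0.29 without Air rats 89 and 145, and that of Col5a1 and Col5a2 in heart was 0.80 without PH3 rat 141. The causes of these moves were not tested. No paired analysis was possible because Air and PH3 rats share no numbers within an organ. Groups of 2 to 4 arrays and dim probe sets limit what could be detected.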
